A study of Mus musculus with 23 samples.

Results

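Genes were sought whose response to bacterial lipopolysaccharide (LPS) at 8 h differed between bone marrow-derived macrophages labelled Selenow knock-out and wild-type ones, among all 18083 genes with enough reads to test. The 4 groups held 3 RNA-seq libraries each. They were knock-out cells (KO) after 8 h of LPS at 100 ng/ml, untreated KO cells at 0 h, wild-type cells (WT) after 8 h of the same LPS dose, and untreated WT cells at 0 h, 12 of the 23 libraries in the series. Selenow encodes selenoprotein W, which has a thioredoxin-like fold and carries selenocysteine. Macrophages sense LPS through Toll-like receptor 4, which drives early transcription of cytokine and chemokine genes through NF-kB and MAP kinases and a second wave of genes through type I interferon. The labels give neither the strain, age or sex of the mice nor the deleted part of the gene. Whether each library had its own mouse or dish is not given there, so each p-value measures the spread between libraries. No untreated library was taken at 8 h, so the effects of LPS and of hours in culture cannot be told apart.

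Libraries go by their running numbers: 19, 20 and 21 are KO at 8 h, 13, 14 and 15 KO at 0 h, 7, 8 and 9 WT at 8 h, and 1, 2 and 3 WT at 0 h. Totals ran from 39001456 to 41665055 counted read pairs, and a count of 0 allows up to 0.0903 CPM (TMM-scaled counts per 1e6) in a library, a limit for counting error only. Macrophage markers summed to between 15800 and 24800 CPM in every library, while fibroblast and stromal markers summed to 23.6 to 146 CPM in KO at 8 h, 4.47 to 35.7 in KO at 0 h, 24.1 to 34.2 in WT at 8 h and 2.75 to 3.51 in WT at 0 h. Neutrophil and precursor markers summed to 800 to 1020 CPM in KO at 8 h, 259 to 287 in KO at 0 h, 697 to 915 in WT at 8 h and 162 to 196 in WT at 0 h, so the genotypes did not overlap at 0 h. Most of these markers did not share the rise of their sum with LPS. Of the 14 tested, 9 fell in each genotype, while 1 rose in KO and 2 in WT. Their median log2 change with LPS was -1.32 in KO and -1.66 in WT. Dendritic cell markers summed to 24.1 to 51.3 CPM in KO at 8 h, 7.18 to 10.7 in KO at 0 h, 37.6 to 61.3 in WT at 8 h and 7.47 to 9.04 in WT at 0 h. The part of these cell types in the results was not tested, and fewer cells of a type and less RNA per cell cannot be told apart. Libraries 14 and 20 of KO and 3 and 9 of WT deviated from their groups together: across 10010 genes, deviations correlated at 0.78 between 14 and 3 and at 0.77 between 20 and 9. An earlier analysis of these data had found the same libraries standing apart, and they are called the second library set below.

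Selenow itself did not separate the labelled genotypes cleanly. Libraries 19, 20 and 21 (KO, 8 h) held 260, 135 and 125 CPM of Selenow and libraries 13, 14 and 15 (KO, 0 h) held 107, 39.4 and 40.8, against 303, 319 and 327 CPM in WT at 8 h and 127, 103 and 133 CPM in WT at 0 h. Libraries 13 and 19 lay near the WT level and the other KO libraries well under it, so every direction below is between libraries labelled KO and libraries labelled WT. LPS raised Selenow by 1.48 ± 0.37 on the log2 scale in KO and by 1.39 ± 0.37 in WT (± SE throughout). The interaction, which is the KO response minus the WT response on that scale, was 0.09 for Selenow, with a 95% interval of -0.99 to 1.17 (edgeR quasi-likelihood test, Benjamini-Hochberg adjusted p = 0.977).

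Most tested genes changed with LPS in each genotype, and the number called as differing between them depended on how the library sets were treated. At an adjusted p under 0.05, 10886 genes changed with 8 h of LPS in KO (60.2% of those tested, 28.3% higher and 31.9% lower) and 11824 in WT (65.4%, 30.3% higher and 35.1% lower). Without a term for the library sets, the interaction test called 8 genes (0.0442%): Fes had the higher response in KO (0.00553%), and Nabp1, Dusp10, Asb4, Tob1, Abca5, Ppp1r10 and Nlrc4 had lower ones (0.0387%). With a term for the second library set at each time it called 2302 (12.7%), described last, and in the first set alone 1667. Without the term, at an unadjusted p under 0.05 there were 2045 genes (11.3%), 1049 of them higher (5.8%) and 996 lower (5.51%). For the 11193 genes averaging at least 5 CPM in some group, the middle 90 percent of interaction values ran from -0.60 to 0.60 and the median standard error was 0.23 on the log2 scale.

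**Figure D1:**
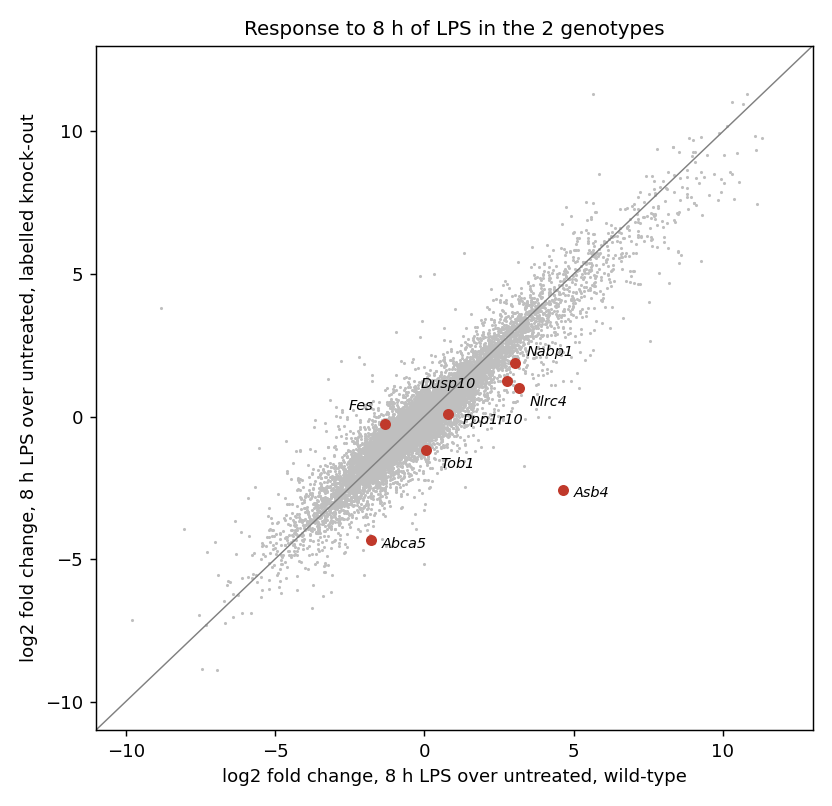
Each point is a gene, placed by its log2 fold change after 8 h of LPS in WT (horizontal axis) and in labelled KO (vertical axis), with the line of equal response and the 8 called genes in red. Most genes lie along the line, Fes lies above it, and the 7 genes with lower responses in KO lie below it.

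The sequences before the start sites of 4 of the called genes are shown because these genes carry the findings that follow: Nlrc4, Nabp1 and Tob1, whose responses were lower in KO, and Fes, whose response was higher. They are the 250 bases before and 50 bases after each start (RefSeq, GRCm38.p6, on the gene's strand), at chr17:74459059-74459358, chr1:51478350-51478649, chr11:94211204-94211503 and chr7:80387897-80388196. Capitals mark TGACG, the half-site of the cyclic AMP response element.
Nlrc4: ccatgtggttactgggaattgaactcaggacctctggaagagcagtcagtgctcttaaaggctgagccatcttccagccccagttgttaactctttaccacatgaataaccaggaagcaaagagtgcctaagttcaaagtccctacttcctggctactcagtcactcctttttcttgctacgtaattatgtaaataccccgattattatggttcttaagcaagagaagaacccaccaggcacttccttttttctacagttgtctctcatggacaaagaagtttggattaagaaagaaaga
Nabp1: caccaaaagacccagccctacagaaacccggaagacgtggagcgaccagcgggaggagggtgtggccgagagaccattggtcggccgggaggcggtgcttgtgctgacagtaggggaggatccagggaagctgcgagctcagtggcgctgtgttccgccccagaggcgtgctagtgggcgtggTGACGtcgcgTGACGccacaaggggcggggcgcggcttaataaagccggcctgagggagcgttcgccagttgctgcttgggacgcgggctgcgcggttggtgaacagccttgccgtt
Tob1: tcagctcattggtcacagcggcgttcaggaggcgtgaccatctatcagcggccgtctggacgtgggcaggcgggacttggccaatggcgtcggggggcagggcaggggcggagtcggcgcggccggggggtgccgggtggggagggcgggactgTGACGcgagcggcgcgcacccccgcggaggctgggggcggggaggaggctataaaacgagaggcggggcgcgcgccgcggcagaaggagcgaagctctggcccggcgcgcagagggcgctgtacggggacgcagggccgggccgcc
Fes: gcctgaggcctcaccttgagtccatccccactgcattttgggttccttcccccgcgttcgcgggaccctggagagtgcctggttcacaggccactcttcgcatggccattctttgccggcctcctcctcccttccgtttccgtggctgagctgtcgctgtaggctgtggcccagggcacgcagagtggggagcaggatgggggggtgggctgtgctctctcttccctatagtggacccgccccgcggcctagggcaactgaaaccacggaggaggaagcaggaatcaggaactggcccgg
TGACG, searched on both strands, began 67 and 57 bases before the start in Nabp1 and 96 bases before it in Tob1, and 20.8% of all 32851 promoter windows hold it. No match was found in the windows of the 8 genes to TGACGTCA, which contains the half-site (1.79% of windows), to the AP-1 site TGANTCA (7.81%), to a kappaB site (4.79%) or to an interferon-stimulated response element (3.44%). A match is a string of letters and no evidence of binding.

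After Asb4 and Abca5, Nlrc4 had the largest interaction value of the 8. Nlrc4 (chr17:74425438-74459142, GRCm38 as below) encodes the inflammasome adaptor that, with NAIP sensors, responds to bacterial flagellin and secretion-system proteins. Nlrc4 stood at 37.9, 27.1 and 41.9 CPM in KO at 8 h and at 18.9, 14.01 and 20.4 CPM in KO at 0 h, against 98.5, 93.3 and 115 CPM in WT at 8 h and 13.1, 12.97 and 8.32 CPM in WT at 0 h. All KO libraries at 8 h lay below all WT ones, while untreated KO libraries lay slightly above untreated WT ones. LPS raised Nlrc4 2.01-fold in KO (adjusted p = 0.00263) and 8.92-fold in WT (adjusted p = 1.84e-08), an interaction of -2.15 ± 0.37 (adjusted p = 0.0402). At 4 h, with the same untreated libraries, Nlrc4 averaged 9.73 CPM in KO and 56.0 CPM in WT, and the interaction was -3.16 (adjusted p = 0.000569). At 24 h it averaged 25.2 CPM in KO (n = 2) and 39.9 CPM in WT (n = 3), and the interaction of -1.29 was not called (adjusted p = 0.306). Nlrc4 overlaps CT033749.1, which averaged 0.584 CPM.

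Fes was the sole gene called with a higher response in KO: LPS lowered it in both genotypes, and less in KO. Fes (chr7:80377756-80387946) encodes a cytoplasmic tyrosine kinase of myeloid cells. Fes stood at 181, 189 and 169 CPM in KO at 8 h and 223, 195 and 234 CPM in KO at 0 h, against 68.5, 66.2 and 69.1 CPM in WT at 8 h and 184, 187 and 137 CPM in WT at 0 h. The genotypes did not overlap at 8 h, nor at 0 h, where the gap was small and not called (log2 KO over WT 0.36, adjusted p = 0.144). Fes fell by 0.27 ± 0.11 on the log2 scale in KO (adjusted p = 0.0407) and by 1.32 ± 0.11 in WT (adjusted p = 1.3e-08), an interaction of 1.05 ± 0.16 (adjusted p = 0.0128). At 8 h it was 2.65-fold higher in KO (adjusted p = 1.52e-07). Fes also stood apart at 4 h, at 129 CPM in KO and 66.9 CPM in WT, with an interaction of 0.59 that was not called (adjusted p = 0.542).

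**Figure D2:**
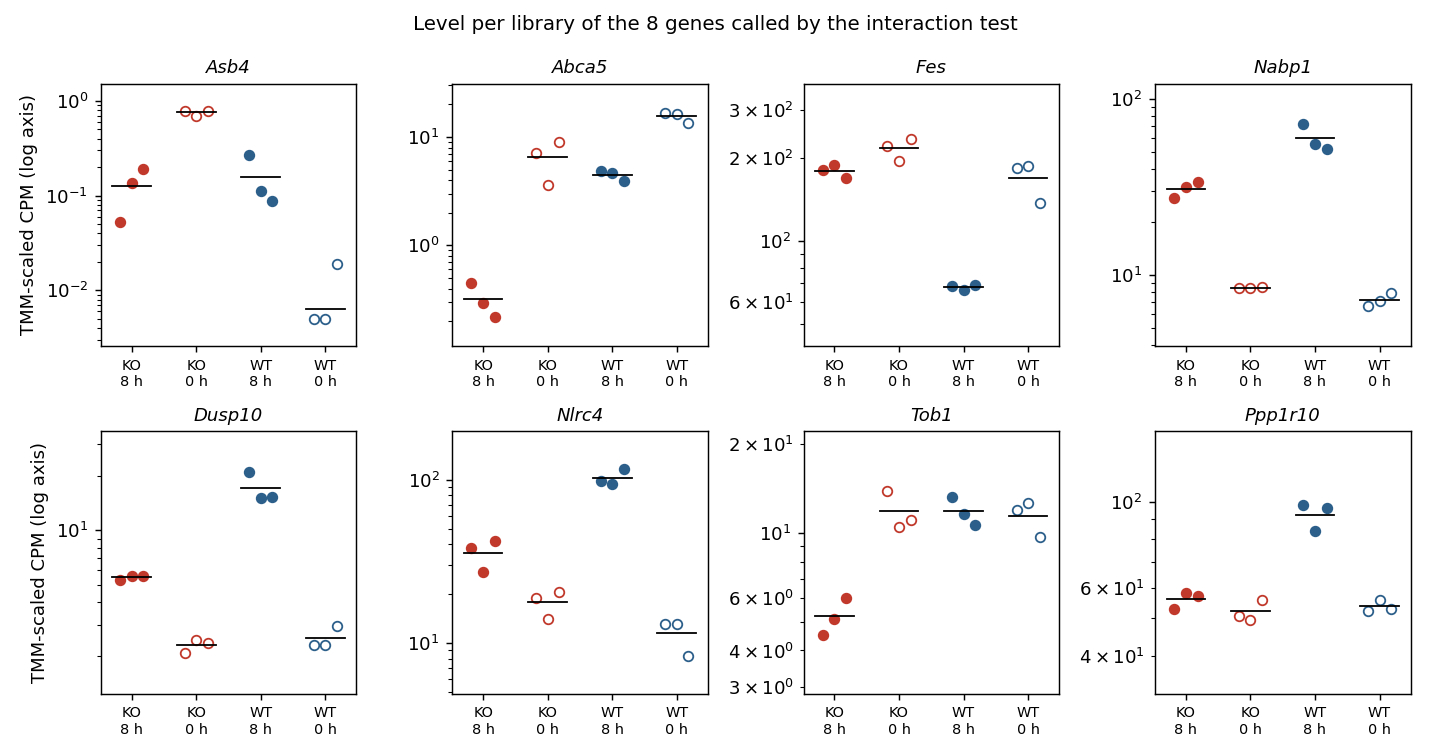
TMM-scaled CPM (log axis, its range set for each panel) of the 8 called genes in each of the 12 libraries, with KO in red and WT in blue, filled points at 8 h and open points at 0 h, and bars at group means. Libraries with no Asb4 reads are drawn at the bottom of that panel, where KO and WT overlap at 8 h. The test that picked these genes used these same values, so separation of the other genes at 8 h is no further result.

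Dusp10 and Nabp1 were induced in both genotypes, less so in KO. Dusp10 (chr1:184013302-184075636) encodes a dual-specificity phosphatase that inactivates the stress kinases p38 and JNK, and Nabp1 (chr1:51465862-51478425) a single-stranded DNA-binding protein of the SOSS complex in DNA repair. Dusp10 stood at 5.30, 5.59 and 5.57 CPM in KO at 8 h and 2.08, 2.47 and 2.38 in KO at 0 h, against 21.1, 15.1 and 15.3 CPM in WT at 8 h and 2.30, 2.31 and 2.96 in WT at 0 h. Nabp1 stood at 27.2, 31.5 and 33.8 CPM in KO at 8 h and 8.41, 8.35 and 8.47 in KO at 0 h, against 72.0, 55.2 and 51.5 CPM in WT at 8 h and 6.64, 7.05 and 7.85 in WT at 0 h. For both genes every KO library at 8 h lay below every WT one, while at 0 h Dusp10 overlapped between genotypes and Nabp1 was slightly higher in KO. LPS raised Dusp10 2.37-fold in KO and 6.80-fold in WT, an interaction of -1.52 ± 0.26 (adjusted p = 0.0402). It raised Nabp1 3.67-fold in KO and 8.30-fold in WT, an interaction of -1.18 ± 0.18 (adjusted p = 0.0128). At 4 h Dusp10 averaged 3.59 CPM in KO and 3.90 CPM in WT, with an interaction of 0.00 at that time (adjusted p = 1). Counting ignored strand, so Dusp10 reads cannot be told apart from those of 1700056E22Rik, an antisense gene within it that averaged 0.299 CPM.

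Tob1 and Ppp1r10 changed in one genotype only by the test used, and it is the interaction that shows the difference. Tob1 (chr11:94211454-94215495) belongs to the BTG/TOB family of antiproliferative proteins, which bring the CCR4-NOT deadenylase to mRNAs. It stood at 4.53, 5.11 and 6.02 CPM in KO at 8 h and 13.9, 10.5 and 11.1 in KO at 0 h, against 13.2, 11.6 and 10.6 CPM in WT at 8 h and 11.98, 12.6 and 9.69 in WT at 0 h. The KO libraries at 8 h were the low ones, and the other 9 lay close together. Tob1 fell by 1.18 ± 0.15 on the log2 scale in KO (adjusted p = 2.44e-06) and its WT value was 0.05 ± 0.15 (adjusted p = 0.79), an interaction of -1.23 ± 0.21 (adjusted p = 0.0402). At 4 h Tob1 was low in both, at 3.43 CPM in KO and 3.34 CPM in WT.

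Ppp1r10 (chr17:35916434-35932283) encodes PNUTS, a nuclear targeting subunit of protein phosphatase 1. It stood at 52.8, 58.0 and 57.2 CPM in KO at 8 h and 50.8, 49.6 and 55.9 in KO at 0 h, against 97.9, 84.0 and 96.2 CPM in WT at 8 h and 52.3, 55.6 and 53.0 in WT at 0 h. Here the WT libraries at 8 h were the high ones. LPS raised Ppp1r10 1.73-fold in WT (adjusted p = 2.42e-07), and the KO ratio was 1.08 (adjusted p = 0.305), an interaction of -0.68 ± 0.12 (adjusted p = 0.0439).

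Abca5 was lowered by LPS in both genotypes, and more in KO. Abca5 (chr11:110269369-110337716) encodes an ATP-binding cassette transporter of lysosomes and late endosomes. Abca5 stood at 0.453, 0.296 and 0.220 CPM in KO at 8 h (17, 11 and 8 reads) and 7.15, 3.58 and 8.96 CPM in KO at 0 h, against 4.84, 4.70 and 3.97 CPM in WT at 8 h and 16.7, 16.2 and 13.5 CPM in WT at 0 h. The genotypes did not overlap at either time. Abca5 was already lower in KO at 0 h (log2 KO over WT -1.24, adjusted p = 0.00481) and was lower still at 8 h (-3.80, adjusted p = 9.23e-08), an interaction of -2.56 ± 0.37 (adjusted p = 0.0128). It averaged 3.10 CPM in KO and 12.5 CPM in WT at 4 h, and 1.86 CPM in KO and 12.8 CPM in WT at 24 h.

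The difference in Asb4 lay at 0 h, at very low levels. Asb4 (chr6:5383386-5433022) encodes a SOCS-box protein that recruits substrates to a cullin-based ubiquitin ligase. Asb4 stood at 0.0533, 0.134 and 0.192 CPM in KO at 8 h (2, 5 and 7 reads) and 0.784, 0.699 and 0.788 CPM in KO at 0 h (41, 39 and 40 reads), against 0.271, 0.113 and 0.0883 CPM in WT at 8 h (9, 4 and 3 reads) and 0, 0 and 0.0190 CPM in WT at 0 h (1 read in all). KO at 0 h was the one group well above the rest, and the genotypes overlapped at 8 h. The interaction was -7.23 ± 1.03 (adjusted p = 0.0128), a value that rests on that 1 read. The ratio of summed reads, KO over WT at 0 h, was 121 with an exact counting interval of 21.3 to 4823, and at 8 h it was 0.807 with an interval of 0.365 to 1.76.

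**Figure D3:**
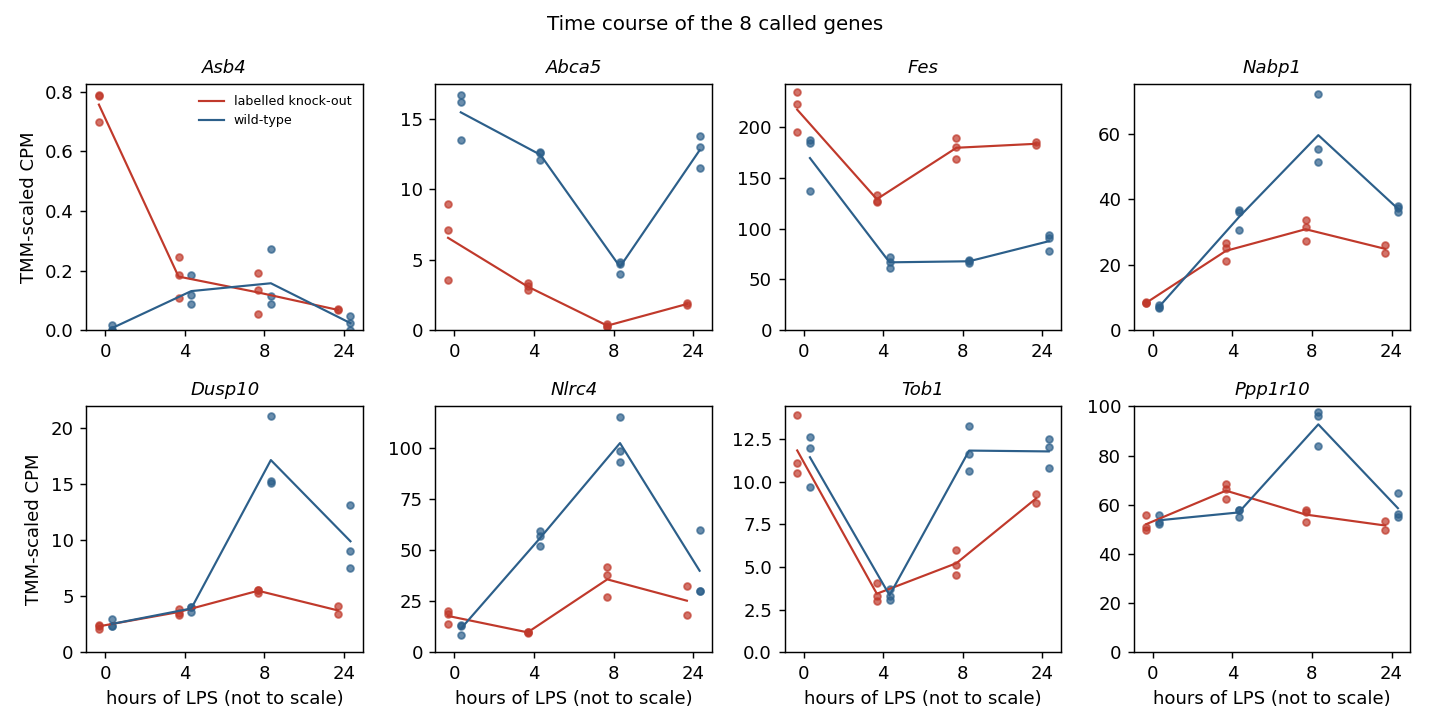
TMM-scaled CPM of the 8 called genes at 0, 4, 8 and 24 h of LPS (not spaced to scale), with 1 point per library and lines through group means, KO in red and WT in blue. At 8 h WT lies above KO for Dusp10, Ppp1r10 and Nlrc4, Nlrc4 shows the same at 4 h, and Asb4 is high in KO at 0 h.

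Calls depended on single libraries. Leaving out library 1, 2, 7 or 20 left 0 genes called (1983, 1948, 1531 and 2391 at an unadjusted p under 0.05), leaving out library 19 left Abca5 and Asb4, and leaving out any of the other 7 left 4 to 8 calls. The call was lost in 11 of the 12 such fits for Nlrc4 and Ppp1r10, in 9 for Dusp10 and Tob1, in 5 for Fes and Nabp1 and in 4 for Abca5 and Asb4. Their adjusted p-values reached 0.18 at most (Ppp1r10). Over these 12 fits the interaction ran from -2.30 to -1.96 for Nlrc4, from 0.97 to 1.18 for Fes, from -2.89 to -2.27 for Abca5 and from -0.75 to -0.63 for Ppp1r10, and no called gene changed sign. Without libraries 13, 16, 19 and 22, whose Selenow level went against the label, edgeR called 0 genes (1030 at an unadjusted p under 0.05).

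A further 12 genes were not called without the library-set term and are given as values. All had a mean of at least 5 CPM in some group. They are the genes of lowest p in each direction, added until 10 were named per direction. That rule sets their split of 9 higher and 3 lower. Among all genes with an adjusted p under 0.1 there were 7 higher and 15 lower. The 9 with a higher response in KO had adjusted p-values from 0.0704 to 0.132: Pex6, of the peroxisomal import machinery, Cib1, a calcium- and integrin-binding protein, Dolk, dolichol kinase, Trmt112, a cofactor of methyltransferases, Pygo2, a coactivator in Wnt signalling, the metalloproteinase gene Mmp11, Tmem39b, Gpr31a and Osbpl3. Their values ran from 0.56 for Trmt112 to 5.67 for Gpr31a, which had 1 read in all in KO at 0 h. Osbpl3, which encodes a lipid-transfer protein of contact sites with the endoplasmic reticulum, had the largest levels among the 9 at 8 h in KO. It stood at 90.0, 69.1 and 79.8 CPM in KO at 8 h and 34.4, 34.8 and 32.4 in KO at 0 h, against 6.77, 9.97 and 3.56 CPM in WT at 8 h and 22.9, 24.0 and 21.4 in WT at 0 h. LPS raised Osbpl3 by 1.23 ± 0.43 in KO (adjusted p = 0.0193) and lowered it by 1.75 ± 0.45 in WT (adjusted p = 0.00224), with an interaction of 2.98 ± 0.62 (adjusted p = 0.103). The 3 with a lower response were Pdcl, a phosducin-like protein gene, Taf7, of the general transcription factor TFIID, and Kansl1l, at -0.57, -0.81 and -0.96 (adjusted p = 0.0673 each). With the library-set term all 12 were called in the same direction, with adjusted p-values from 1.94e-06 for Osbpl3 (3.04 ± 0.22) to 0.00654 for Mmp11 (0.82 ± 0.17). They were picked for a low p in the same libraries, so these calls are no separate evidence. The term called 12.7% of all genes tested and lowered the median standard error from 0.318 to 0.191.

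None of 25 LPS-responsive genes chosen as a panel was called without the library-set term, and their intervals were wide. With the term 6 were called, all with a lower response in KO, where 5.87% of all genes were called lower. They were Il6 (-3.84), Il1a (-2.30), Ptgs2 (-2.00), Cxcl2 (-1.46), Ccl3 (-1.25) and Tnfaip3 (-0.64), with adjusted p-values from 0.00123 for Ccl3 to 0.0337 for Il6. Levels of all of them but Cxcl2 overlapped between genotypes at 8 h, and untreated reads of Il6 and Il1a were few, as given below. Without the term the 24 with reads in every group had adjusted p-values from 0.416 to 0.992 (Ifnb1 had none in KO at 0 h). Il1b, the interleukin-1 beta gene, stood at 804, 1196 and 907 CPM in KO at 8 h and 1.19, 1.90 and 5.002 in KO at 0 h, against 977, 1058 and 1185 CPM in WT at 8 h and 0.356, 0.480 and 1.69 in WT at 0 h. Levels at 8 h overlapped, 2 untreated KO libraries lay above every untreated WT one, and the interaction was -1.83 ± 0.84 (interval -3.58 to -0.08, adjusted p = 0.416). Cxcl2, a neutrophil-attracting chemokine gene, stood at 138, 142 and 170 CPM in KO at 8 h and 3.002, 5.66 and 3.74 in KO at 0 h, against 339, 372 and 385 CPM in WT at 8 h and 2.92, 2.86 and 5.27 in WT at 0 h. Those 8 h levels did not overlap, and the interaction was -1.45 ± 0.69 (adjusted p = 0.436). Its neighbour Cxcl1 stood at 10.4, 4.03 and 8.16 CPM in KO at 8 h, against 33.3, 39.0 and 45.5 CPM in WT at 8 h, a log2 difference of -2.38 between genotypes at that time (adjusted p = 0.026), with an interaction of -1.98 ± 1.07 (adjusted p = 0.496).

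Tnf and Il6, which encode early cytokines, varied widely within groups. Tnf stood at 277, 719 and 257 CPM in KO at 8 h, against 291, 273 and 673 CPM in WT at 8 h, and libraries 20 and 9 were the high ones. Il6 stood at 17.4, 102 and 18.5 CPM in KO at 8 h, against 68.3, 41.0 and 226 CPM in WT at 8 h, again with 20 and 9 highest. The interactions were -0.24 ± 0.69 for Tnf (interval -1.68 to 1.19) and -3.69 ± 2.14 for Il6 (interval -8.17 to 0.80). Ccl5, a T cell-attracting chemokine gene, had a value of 0.06 ± 0.64, and Nos2, inducible nitric oxide synthase, one of -1.75 ± 1.31.

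**Figure D4:**
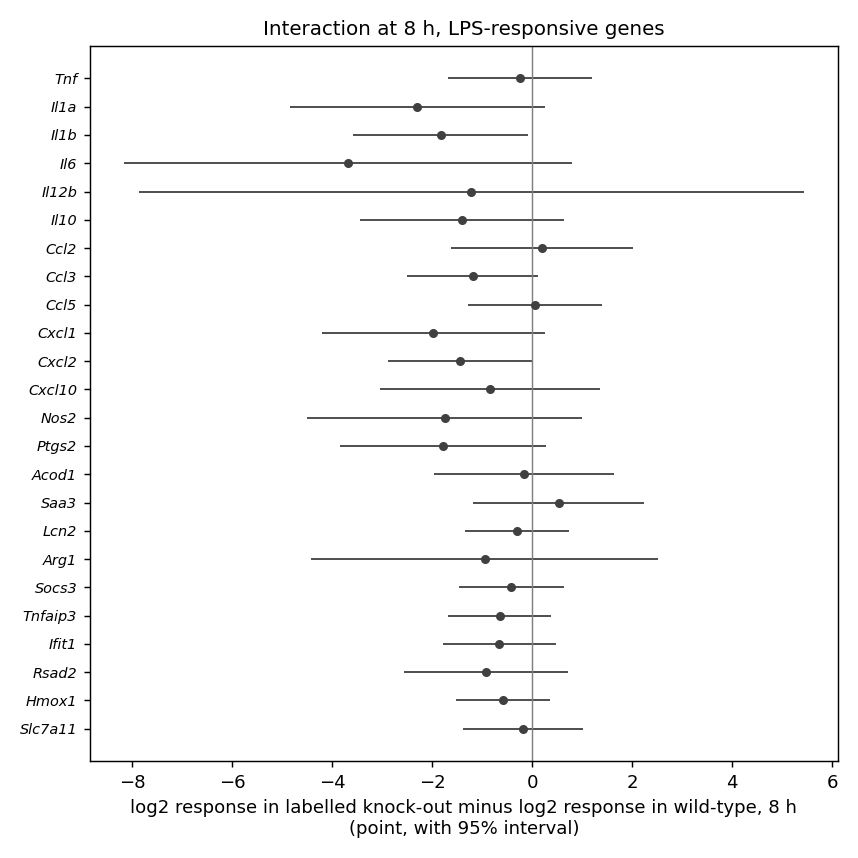
Interaction at 8 h (log2 KO response minus log2 WT response) with its 95% interval for the panel genes with reads in every group. The interval of Il1b runs from -3.58 to -0.08 and that of Tnf from -1.68 to 1.19, and none of the genes was called in this fit. With the library-set term 6 were called with a lower response in KO, where 5.87% of all genes were called lower.

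Across 46 lists of pathway genes and cell type markers, Nlrc4 was the one called member, in the inflammasome and cell death list (1 of 22). The median interaction over all genes was 0.01 under TMM scaling, -0.01 under RLE and 0.00 under upper-quartile scaling. Among lists with no called member without the library-set term, inflammatory cytokines had 16 of 22 members below 0. Their median was -0.97, taken over the 18 members with reads in every group. Interferon-stimulated genes had a median of -0.16 with 23 of 38 below 0. Heat shock chaperones had a median of -0.28 with 15 of 18 below 0. Ribosome biogenesis genes had a median of 0.40 with 16 of 18 above 0, and glycolysis genes one of 0.17 with 19 of 24 above 0. Dendritic cell markers had a median of -0.76 with 9 of 10 below 0, and neutrophil and precursor markers one of 0.20 with 8 of 14 above 0. Selenoprotein genes had a median of 0.01, with 10 of 20 members on each side.

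Mitochondrially encoded mRNAs, which specify core subunits of the respiratory chain and of ATP synthase, had the lowest adjusted p among lists without a call (mt-Atp6, 0.085). All 13 had negative values, with a median of -0.61, and 8 had an unadjusted p under 0.05. Over all genes tested, 49.2% had negative values, and 5.51% had a lower response in KO at that p. With LPS, 12 of 13 fell in KO (median -0.98) and 4 of 13 in WT (median -0.07), where 31.9% and 35.1% of all genes tested fell. mt-Atp6, an ATP synthase subunit gene, stood at 11.4, 13.3 and 13.1 CPM in KO at 8 h and 35.6, 30 and 26.5 in KO at 0 h, against 21, 17.1 and 23.3 CPM in WT at 8 h and 24.6, 21.3 and 18.8 in WT at 0 h. Untreated KO libraries were the highest and KO libraries at 8 h the lowest, and the value was -1.21 ± 0.24. mt-Nd1, a complex I subunit gene, stood at 689, 870 and 734 CPM in KO at 8 h and 1710, 1992 and 1802 in KO at 0 h, against 954, 970 and 1129 CPM in WT at 8 h and 1738, 1581 and 1502 in WT at 0 h, with a value of -0.61 ± 0.20 (adjusted p = 0.266). mt-Nd6 alone averaged higher in KO at 8 h (341 CPM, against 274 in WT), with 494 in KO and 244 in WT at 0 h. For mt-Co1 the means were closer at 8 h (4664 CPM in KO, 4942 in WT) than at 0 h (5441 and 4548). The same held for mt-Nd5 (831 and 852 at 8 h, 1175 and 874 at 0 h). Because mt-Atp8 and mt-Atp6 overlap and a pair over several genes counted for each, the 13 genes do not stand for independent measurements. Reads of mt-Nd6 cannot be told apart from transcripts of the other strand. The largest values came from genes at low levels, such as mt-Atp8 (-1.78), which averaged 4.84 CPM in KO at 8 h. Of genes at higher levels there, mt-Co1 (4664 CPM) had -0.34, mt-Cytb (977 CPM) -0.40 and mt-Nd4 (411 CPM) -0.41. The low mt-Nd4l (1.08 CPM) had -0.17. Reads that aligned to several places were dropped, and the part of this in the low levels was not tested.

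**Figure D5:**
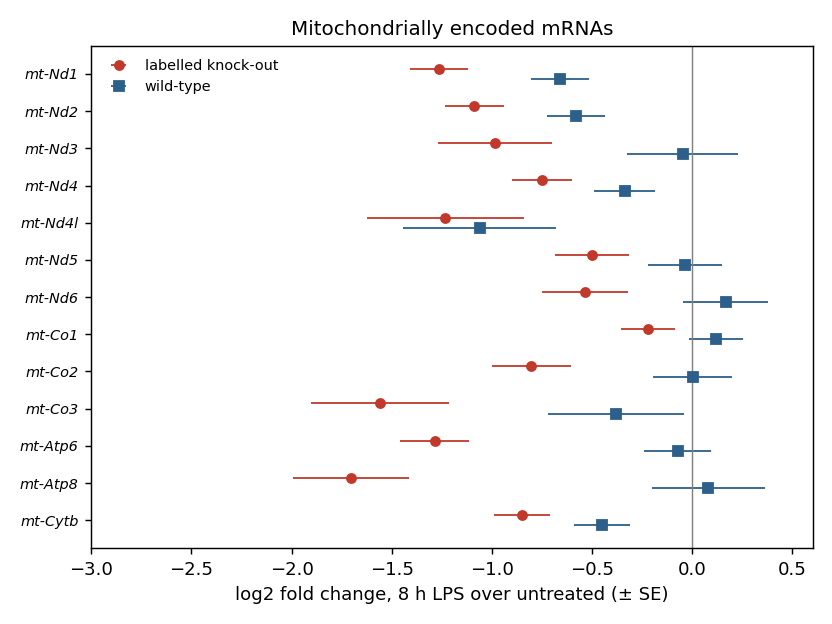
Log2 fold change after 8 h of LPS (± SE) of the 13 mitochondrially encoded mRNAs, with KO as red circles and WT as blue squares. Every KO value lies to the left of its WT value, and the interaction was -1.21 for mt-Atp6 and -0.61 for mt-Nd1.

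A fit that gave the second library set (3, 6, 9, 12, 14, 17, 20 and 23 over all times) its own term at each time called far more genes. It called 2302 genes (12.7%), 1240 higher in KO (6.86%) and 1062 lower (5.87%), and all 8 genes called above were among them. The counts of list members that follow stand against these shares. The sets were found in these data and not in the labels, so its p-values may be too small, and the members below were named after their values were seen. In the fit without the term none of these members but Nlrc4 was called.

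In the fit with the library-set term, lower responses in KO were called for 6 of 22 inflammatory cytokines (Il1a, Il6, Il23a, Il27, Osm and Tnfsf15) and a higher one for Csf1, the macrophage colony-stimulating factor gene. The level of Csf1 was nevertheless lower in KO at both times. It averaged 51.4 CPM in KO and 88.7 in WT at 8 h, and 8.86 in KO and 33.2 in WT at 0 h. Some of these cytokines had few untreated reads. At 0 h Il6 had 2, 1 and 5 reads in WT and 1, 17 and 24 in KO, and Il1a 10, 9 and 24 in WT and 25, 40 and 75 in KO. Il23a averaged 0.00615 CPM in WT and 0.0326 in KO at 0 h. Il6 and Il1a overlapped between genotypes at 8 h, while at 0 h every KO library lay above every WT one for Il1a. Osm, oncostatin M, stood at 29.7, 31.7 and 33.95 CPM in KO at 8 h and 4.07, 4.44 and 5.63 in KO at 0 h, against 90.4, 75.5 and 72.6 CPM in WT at 8 h and 5.54, 4.96 and 5.88 in WT at 0 h. The KO libraries at 8 h were all below the WT ones and the untreated ones overlapped, and the value was -1.11 ± 0.21 (adjusted p = 0.00451, against 0.132 without the term). Among 21 chemokines Cxcl2 and Ccl3 were called lower and Cxcl14 higher, which is near the 12.7% over all genes, and among 38 interferon-stimulated genes Gbp7 alone was called, lower, a share under the 5.87% over all genes.

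Stress-response lists held further calls with that term. Of 18 heat shock chaperones 6 were called lower (Dnajb4, Dnaja1, Chordc1, Hsp90aa1, Hspa1a and Hspa1b) and Hsf1, their transcription factor, higher. Hspa1a, an inducible HSP70 gene, stood at 59.3, 87.2 and 65.5 CPM in KO at 8 h and 0.574, 0.304 and 0.315 in KO at 0 h, against 245, 193 and 185 CPM in WT at 8 h and 0.524, 0.351 and 0.303 in WT at 0 h. The 8 h libraries did not overlap and the untreated ones did, and the value was -1.59 ± 0.48 (adjusted p = 0.0369, against 0.15 without the term). The unadjusted p of Hspa1a was higher with the term (0.00385) than without it (0.000514, SE 0.38). Its call with the term is therefore no stronger evidence for this gene. Hspa1a and Hspa1b are near-identical and reads that aligned to several places were dropped, so their levels are uncertain. Of 23 genes of the unfolded protein and integrated stress responses 6 were called lower, among them Hspa5, the endoplasmic reticulum chaperone BiP (-0.60 ± 0.12), and Ppp1r15a, which promotes dephosphorylation of eIF2alpha (-0.91 ± 0.19), and 4 higher, among them Asns and Phgdh of amino acid synthesis. Of 22 immediate early genes 6 were called lower and 0 higher, among them Ier3 and Egr1.

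Among redox genes in that fit, of 27 NRF2 antioxidant genes 6 were called lower (Cat, Srxn1, Gclm, Gclc, Prdx1 and Txnrd1) and 0 higher. Gclm, the modifier subunit of the enzyme that starts glutathione synthesis, stood at 212, 189 and 221 CPM in KO at 8 h and 99.2, 106 and 87.2 in KO at 0 h, against 252, 263 and 180 CPM in WT at 8 h and 54.4, 53.0 and 76.0 in WT at 0 h. Untreated KO libraries were the higher ones for Gclm and the 8 h levels overlapped, and the value was -0.83 ± 0.12. Of 24 glycolysis genes 3 were called (Eno1, Gapdh and Tpi1), all higher, where 6.86% of all genes were called higher and 12.7% in either direction. Mitochondrially encoded mRNAs had 5 of 13 called lower. Among 20 selenoprotein genes, Selenot, Selenok, Txnrd1 and Dio2 were called lower and Selenon and Txnrd2 higher. The endoplasmic reticulum selenoprotein gene Selenok stood at 47.1, 54.8 and 44.5 CPM in KO at 8 h and 52.4, 48.4 and 53.0 in KO at 0 h, against 64.0, 58.8 and 71.5 CPM in WT at 8 h and 49.2, 48.0 and 40.5 in WT at 0 h, a value of -0.57 ± 0.10 (adjusted p = 0.00251).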

How the data were processed

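The authors deposited a table of unnormalized counts, the read pairs assigned to each gene, made with HISAT2 (version not given in the sources used here) and featureCounts 2.0.1 on the Ensembl release 101 annotation of GRCm38 (per the file headers). The submitters' processing notes also name DESeq2. Counting ignored strand, gave a pair lying over several genes to each, and dropped reads that aligned to several places. Of 55401 identifiers, 55141 took a symbol from GENCODE release M21.

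All 23 libraries entered 1 fit of 8 group means in edgeR 4.0.16 (R 4.3.3) with TMM scaling, filterByExpr (18083 genes kept) and the two-sided quasi-likelihood F-test. The contrast was KO at 8 h minus KO at 0 h, less WT at 8 h minus WT at 0 h. Benjamini-Hochberg adjustment ran over all genes tested, and genes under 0.05 were called. The SE of a log2 value, fitted without shrinkage, is its size over the square root of F. CPM are counts per TMM-scaled library size. The fit was tested on simulated data. Replicate pairs all differed by more than sampling noise.

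Named genes were Selenow, every called gene, the genes of lowest p up to 10 per direction with a group mean of at least 5 CPM, a panel of 25 LPS responders, and members of the lists described, called or by lowest p. Members and lists were chosen with earlier results of these data known. Genes named from the fit with a library-set term were picked after seeing their values. Alternatives used limma 3.58.1 and DESeq2 1.42.0, other scalings, filters and thresholds, and other sets of libraries. Reads were not analysed here. The result of 1 gene list is not reported here.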

Additional observations from a re-analysis of the deposited data

Results flagged for a closer look

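The responses of 8 genes to LPS at 8 h differed between labelled KO and WT by the interaction test itself, which is what singled them out. The log2 KO response minus WT response was 1.05 for Fes, -1.18 for Nabp1, -1.52 for Dusp10, -7.23 for Asb4, -1.23 for Tob1, -2.56 for Abca5, -0.68 for Ppp1r10 and -2.15 for Nlrc4. For Asb4 the gap between genotypes lay at 0 h (log2 KO over WT 6.92, adjusted p = 8.51e-06) and rests on 1 read in WT.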

How the results depend on the processing

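No paired analysis was possible from the labels because no replicate number occurs in more than 1 group. Blocks by the order of libraries within a group were not fitted. The library sets found in the data were used as a term instead. The main fit called 8 genes, 1 higher in KO and 7 lower. DESeq2 called 196 (80 higher, 116 lower), with 7 of the 8 among them, and limma-voom 8 (2 higher, 6 lower), with 6 of the 8. Without a filter on low counts there were 9, 4 of them higher. At an adjusted p under 0.1 there were 22 (7 higher, 15 lower). Against a fold of 1.2 (glmTreat) there were 2, 0 higher and 2 lower. edgeR called 0 genes, 0 higher and 0 lower, in a fit of the 12 libraries alone (2252 at an unadjusted p under 0.05), without the 4 libraries whose Selenow level goes against the label (1030) and at an adjusted p under 0.01 (2045). The causes were not tested. Leaving out each library gave 0 to 8 calls, 0 to 3 higher and 0 to 7 lower.

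Giving the second library set its own term at each time gave 2302 calls (1240 higher, 1062 lower), the first set alone 1667 (701 higher, 966 lower), and, added after seeing the data, the term with the 12 libraries alone 2800 (1376 higher, 1424 lower) and the term without the 4 libraries 1424 (780 higher, 644 lower). All 8 genes were called in each of these 4 fits. Over all alternatives no called gene changed sign. Adjusted p ran from 8.08e-07 to 0.391 for Nlrc4, 2.03e-06 to 0.391 for Fes, 5.58e-06 to 0.391 for Nabp1, 0.000162 to 0.391 for Dusp10, 0.00147 to 0.332 for Asb4, 4.5e-05 to 0.664 for Tob1, 2.03e-06 to 0.302 for Abca5 and 6.86e-05 to 0.642 for Ppp1r10.

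Some uncalled values changed sign. Selenow was -0.058 in the first set alone and ran from -0.33 to 0.73 with each library left out. Ccl2 was -0.027 without the 4 libraries and -0.10 in the first set, and ran from -1.35 to 1.38 with each library left out. Ccl5 was -0.054 with limma-voom, -0.12 without the 4 libraries, -0.11 with the set term, -1.10 in the first set, -0.14 with the term in the 12 libraries and -0.22 with the term without the 4 libraries, and ran from -0.79 to 0.65. Saa3 was -1.36 in the first set and ran from -0.998 to 1.39. With each library left out Tnf ran from -0.89 to 0.30, Il12b from -3.11 to 0.31, Acod1 from -1.10 to 0.18, Socs3 from -0.64 to 0.025 and Slc7a11 from -0.73 to 0.057.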

Other observations

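Pla2g7, Xdh and Rgs2, among the 2302 genes called in the fit with the library-set term, were picked after their values were seen. Pla2g7, a phospholipase that hydrolyses platelet-activating factor, stood at 431, 242 and 479 CPM in KO at 8 h and 140, 50.2 and 157 in KO at 0 h, against 1053, 930 and 729 CPM in WT at 8 h and 100.9, 107 and 49.5 in WT at 0 h, a value of -1.63 ± 0.21 (adjusted p = 0.000547). Xdh, xanthine dehydrogenase, stood at 472, 383 and 490 CPM in KO at 8 h, against 1045, 881 and 931 CPM in WT at 8 h, a value of -1.19 ± 0.15 (adjusted p = 0.000518). Rgs2, a regulator of G protein signalling, averaged 15.2 CPM in KO at 8 h and 74.97 CPM in KO at 0 h, against 40.8 CPM in WT at 8 h and 77.4 CPM in WT at 0 h, a value of -1.39 ± 0.17. In the fit without the term none of these 3 was called.

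Chromosome 17 held 17 of the 100 genes of lowest interaction p with 5.44% of the genes tested, and 15.9% of its genes had an unadjusted p under 0.05, against 11.3% of all genes. That second share was not particular to chromosome 17. It was 15.3% on chromosome 19, 14% on chromosome 18 and 48.5% on the mitochondrial genome. Nlrc4, Ppp1r10, Pla2g7 and Xdh lie on chromosome 17. Beside Fes on chromosome 7, Furin had an interaction of 1.07 ± 0.35 (unadjusted p = 0.00699) and Unc45a one of 0.66 ± 0.15 (unadjusted p = 0.000355), and neither was called, while with the library-set term both were (0.98 ± 0.20, adjusted p = 0.00645, for Furin and 0.66 ± 0.097, adjusted p = 0.00123, for Unc45a). Other genes close by differed from them: Hddc3 had a value of -0.56 (adjusted p = 0.0386 with the term) and Man2a2 one of -0.21 (adjusted p = 0.236 with the term). Hddc3 overlaps Unc45a and Man2a2 on the other strand, so reads in the shared stretches cannot be told apart.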
